A study of Mus musculus with 28 samples.

Results

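The 4 Hox clusters were read in lists of accessible chromatin from mouse cells on their way from fibroblast to muscle progenitor, and in muscle stem cells. A peak counted as a Hox peak when it overlapped 1 of 4 windows of the mm9 mouse genome: HoxA on chromosome 6 from 52050000 to 52270000, HoxB on chromosome 11 from 96000000 to 96280000, HoxC on chromosome 15 from 102700000 to 102920000 and HoxD on chromosome 2 from 74450000 to 74650000. The windows held 1543 of the 2048700 peaks listed over 28 libraries. Overlapping peaks of all libraries were merged, and 152 of the 253225 merged regions lay in the windows, 43 in HoxA, 39 in HoxB, 43 in HoxC and 27 in HoxD. The windows are named for 38 Hox genes, 10 each in HoxA and HoxB and 9 each in HoxC and HoxD. They were set by position and not by a cut on a measured value. Earlier results of these data were known when they were chosen. ATAC-seq cuts open DNA with a transposase, so a peak marks accessible chromatin and not the activity of a gene.

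All 14 groups had 2 libraries each. Per the labels' protocols the fibroblasts came from embryos at embryonic day 13.5 and carried 3 alleles, a Pax7-nGFP reporter, Col1a1-tetO-MyoD, and the Rosa-rtTA transactivator that switches the MyoD transgene on with doxycycline. MyoD is the muscle transcription factor known for converting fibroblasts to myogenic cells. The groups labelled MEF14 were untreated cells at day 0, cells taken 2, 4, 6 and 8 days into Dox+FRG treatment, the same treatment at days 8 and 10 with the label GFP, cells under doxycycline without FRG (Dox) at days 4 and 8, and cells under FRG without doxycycline at day 8. The letters FRG were taken to stand for forskolin, RepSox and a GSK3 inhibitor. The protocol gives these at 5 µM, 5 µM and, for CHIR99021, 3 µM, with doxycycline at 2 µg/ml and basic FGF at 10 ng/ml. The 2 groups labelled MEF10 were MyoD+FRG and MN+FRG at day 6. The labels define neither MN nor the numbers in MEF14 and MEF10, and do not say how the GFP cells were obtained. Dox+FRG libraries without that label are called unsorted. Satellite cells, the resident stem cells of muscle fibres, came from adult Pax7-nGFP mice of 10 to 12 weeks and were labelled quiescent or activated. No label says which muscles they came from, or whether replicates are separate cultures or animals. The p-values therefore cover only the spread from library to library, which may be technical.

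Hox genes encode homeodomain transcription factors that give cells their position along the body axis. In each cluster the genes lie in the order in which they act from head to tail, with low numbers at the head end. Hoxa13 and Hoxd13 are known for patterning the digits, Hoxa11 and Hoxd11 for the forearm, and the genes of the HoxB and HoxC middle for the trunk. Embryonic fibroblasts, limb cells and adult muscle stem cells are known to keep a Hox pattern of the place they came from. From low to high coordinate, the RefSeq table of GRCm38.p6 runs from Hoxa2 to Hoxa13 in HoxA, from Hoxb13 to Hoxb1 in HoxB, from Hoxc13 to Hoxc4 in HoxC and from Hoxd13 to Hoxd1 in HoxD. All 38 genes matched that table. The peak lists are in mm9 and no mm9 annotation was used here, so no peak was assigned to a gene, an exon or a UTR, and the cells could not be checked against marker genes.

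HoxB was the window whose peak count differed most between fibroblasts and activated satellite cells, and RefSeq promoters were at hand for 3 of its genes. Hoxb8 belongs to the middle of the cluster and Hoxb4 and Hoxb1 to its head end, and Hoxb1 is known for setting up a segment of the hindbrain. The 250 bases before each start are given 5′ to 3′ on the plus strand of chromosome 11 in GRCm38.p6, with each CpG in capitals, to show the kind of DNA at these starts. They span 96281655 to 96281904 for Hoxb8, 96318017 to 96318266 for Hoxb4 and 96365508 to 96365757 for Hoxb1, positions that cannot be set against the mm9 windows.
Hoxb8: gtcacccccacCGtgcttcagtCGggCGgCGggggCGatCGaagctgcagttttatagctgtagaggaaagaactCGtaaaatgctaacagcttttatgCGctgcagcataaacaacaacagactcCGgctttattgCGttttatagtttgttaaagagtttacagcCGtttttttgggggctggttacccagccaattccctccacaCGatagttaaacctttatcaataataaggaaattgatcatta
Hoxb4: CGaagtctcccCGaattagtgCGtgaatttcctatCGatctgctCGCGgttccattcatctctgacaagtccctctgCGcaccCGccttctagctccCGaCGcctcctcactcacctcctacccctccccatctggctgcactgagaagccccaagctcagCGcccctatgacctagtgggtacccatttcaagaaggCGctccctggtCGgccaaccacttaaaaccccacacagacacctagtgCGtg
Hoxb1: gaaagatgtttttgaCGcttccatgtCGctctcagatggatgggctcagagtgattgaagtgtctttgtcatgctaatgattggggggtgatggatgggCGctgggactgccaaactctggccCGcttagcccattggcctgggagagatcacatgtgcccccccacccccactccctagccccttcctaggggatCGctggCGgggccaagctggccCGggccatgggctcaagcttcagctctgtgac

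The 3 stretches hold 12, 14 and 7 CpG. The table had 24 promoters of 22 of the 38 genes, with a median of 12.5 CpG in 250 bases, against 6 over all 32851 promoters. MyoD binds the E-box CANNTG, which reads the same on both strands. That pattern occurred 0 times before Hoxb8, 1 time before Hoxb4 and 3 times before Hoxb1. It was present in 17 of the 24 Hox promoters (70.8%) and in 66.2% of all promoters. The form CAGCTG, which is contained in CANNTG, was present in 3 Hox promoters (12.5%), those of Hoxa3, Hoxa5 and Hoxa6, and in 13.0% of all. A match of letters is a description and not a binding site.

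The lists held 37301 to 134997 peaks, and their read depth is unknown. Peaks of 1 common width made up the larger part of 27 lists, the exception being MEF10 MyoD+FRG replicate 2, and this width ran from 61 to 63 bp in FRG, 78 to 88 bp in Dox and 111 to 123 bp in MEF10 MN+FRG, and from 153 to 205 bp in all others except MEF10 MyoD+FRG. The MEF10 MyoD+FRG libraries stood apart from each other, with common widths of 155 and 500 bp, 37301 and 91401 peaks, and 16 and 71 Hox peaks. They entered no test below, and counts of regions were repeated with replicate 2 of that group kept out of the merging. The merging moved 2 of these counts, which are given where they occur. In bulk samples, fewer cells with an open region and less opening per cell cannot be told apart.

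The 4 windows were denser in peaks than the genome in most libraries. Set against the library's own average over the genome, HoxA had a median density of 2.80 times over the 28 libraries (2.08 to 4.77), HoxC 2.10 times (1.29 to 4.75), HoxD 1.87 times (0.707 to 3.48) and HoxB 1.82 times (0.460 to 2.93). HoxA was therefore above the genome in every library, while HoxB was highest at day 0 and below the genome average in activated satellite cells. In day 0 fibroblasts HoxB stood at 2.93 times in both libraries, and HoxA at 3.05 and 2.67 (replicates 1 and 2). In activated satellite cells HoxB stood at 0.58 and 0.46 times and HoxA still at 3.18 and 2.54. Quiescent satellite cells had the highest HoxC densities, 4.35 and 4.75 times. Their HoxA densities of 4.77 and 4.11 times stood beside 4.08 and 4.14 in day 8 GFP cells.

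Counted as peaks, the HoxB window differed widely between groups. Day 0 fibroblasts listed 22 and 21 HoxB peaks (replicates 1 and 2, in this order throughout). Dox+FRG cells listed 11 and 9 at day 2, 9 and 8 at day 4, 15 and 16 at day 6, and 17 and 14 at day 8. The counts of days 2 and 4 lay below those of day 0 and of days 6 and 8, with no overlap. Cells labelled GFP listed 11 and 8 at day 8 and 16 and 16 at day 10, so the earlier GFP group was low again beside the unsorted day 8 cells. Quiescent satellite cells listed 14 and 6, and activated satellite cells 3 and 3, the latter below every other library except MEF10 MyoD+FRG replicate 1, which also listed 3. List length moved with some of these counts, since the day 2 lists held 59721 and 46017 peaks, the quiescent lists 57859 and 37910 and the activated lists 49072 and 61400, against 70756 and 67502 at day 0. Activated satellite cell lists were thus no shorter than the day 8 GFP lists (47002 and 43467).

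The other windows also had fewer peaks in some groups than at day 0. From quiescent to activated satellite cells the mean count went from 18.0 to 8.5 in HoxC and from 10.0 to 3.0 in HoxB. HoxA held 18 and 15 peaks at day 0, 8 to 18 in Dox+FRG libraries, 23 and 13 in quiescent and 13 and 13 in activated satellite cells. HoxC held 17 and 13 at day 0, 8 to 14 under Dox+FRG, 21 and 15 in quiescent and 8 and 9 in activated satellite cells. HoxD held 13 and 13 at day 0, 3 to 14 under Dox+FRG, 13 and 10 in quiescent and 4 and 5 in activated satellite cells. In HoxC and HoxD the activated libraries thus lay below both quiescent libraries, and in HoxA they reached the lower of them. The longest lists, those of FRG day 8, had the most peaks in each window, 29 and 26 in HoxA, 26 and 28 in HoxB, 26 and 22 in HoxC and 19 and 19 in HoxD.

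**Figure D1:**
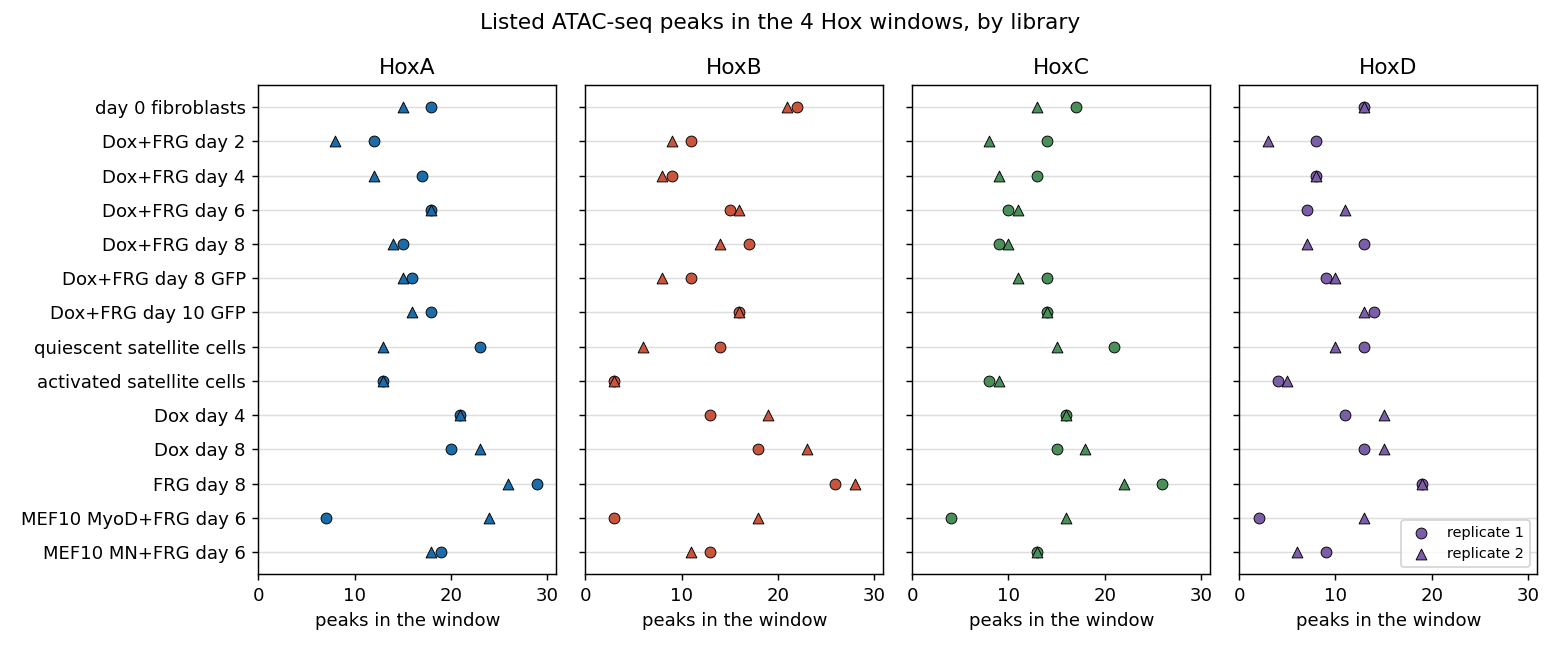
Number of listed peaks in each Hox window (x axis) for the 2 libraries of each group (y axis); circles are replicate 1 and triangles replicate 2. Activated satellite cells have 3 HoxB peaks in each library and 13 HoxA peaks in each, while day 0 fibroblasts have 22 and 21 HoxB peaks.

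To compare the clusters within a library, each window's count was given as a share of that library's Hox peaks. Shares were compared between all 12 Dox+FRG libraries and the 4 satellite cell libraries, between the 12 and day 0, between GFP-labelled and unsorted Dox+FRG cells, and between Dox+FRG and Dox at days 4 and 8. With Hox peaks per 10000 listed peaks as a further measure this made 20 two-sided exact permutation tests, adjusted together by the Benjamini-Hochberg method. An adjusted p under 0.05 counted as passing. 2 tests passed, and 5 had an unadjusted p under 0.05.

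Converting cells gave HoxB a larger part of their Hox peaks than satellite cells did. HoxB made up 26.0% ± 4.89 of Hox peaks over the 12 Dox+FRG libraries and 13.5% ± 4.42 over the 4 satellite cell libraries (SD). The difference was 12.5 percentage points (p = 0.00165 and adjusted p = 0.0202 in the exact permutation test, 1820 splits). Dox+FRG libraries ran from 18.2% to 32.1% with a median of 26.5%, and the satellite cell libraries stood at 19.7% and 13.6% (quiescent) and 10.7% and 10.0% (activated), so the groups overlapped. Dox+FRG day 4 replicate 1 (19.1%) and day 8 GFP replicate 2 (18.2%) fell below the quiescent replicate 1. Per 10000 listed peaks, quiescent libraries had 2.42 and 1.58 HoxB peaks, inside the Dox+FRG range of 1.27 to 2.77. Only the activated libraries, with 0.611 and 0.489, lay below that range. The call did not hold without quiescent replicate 2 (12.5 points), activated replicate 1 (11.5 points) or activated replicate 2 (11.3 points), each with an adjusted p of 0.0659 by the exact permutation test. With the mean of each group as the unit it cannot pass, and its adjusted p was 0.476 by the exact permutation test.

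The 4 shares of a library add up to 100%, so a low share of any cluster raises the others, and a high share lowers them. The other shares are therefore no separate evidence. HoxA and HoxC shares were lower in Dox+FRG libraries than in satellite cells, but neither difference passed. Per 10000 listed peaks, activated satellite cells had 2.38 HoxA and 1.55 HoxC peaks and Dox+FRG libraries 2.60 and 2.01, so the higher shares of activated cells did not go with more peaks. Quiescent libraries had 3.63 and 3.96 HoxC peaks per 10000, above the Dox+FRG range of 1.34 to 2.98. Their HoxA values were 3.98 and 3.43, where the highest Dox+FRG library had 3.45. HoxA made up 31.1% ± 3.30 in Dox+FRG libraries (n = 12) and 37.9% ± 8.21 in satellite cells (n = 4), a difference of -6.83 points (exact permutation test, p = 0.0264, adjusted p = 0.105). The activated libraries had HoxA shares of 46.4% and 43.3%, above all libraries but MEF10 MyoD+FRG replicate 1 (43.8%), and the quiescent libraries 32.4% and 29.5%, inside the Dox+FRG range of 26.7% to 36.2%. HoxC made up 24.1% ± 4.22 and 30.6% ± 2.43, a difference of -6.43 points (exact permutation test, p = 0.0154, adjusted p = 0.103). The HoxC difference passed without Dox+FRG day 2 replicate 1 (-7.07 points, exact permutation test, adjusted p = 0.0404). It also passed with merged regions in place of peaks (-7.97 points, adjusted p = 0.0183) and with windows widened by 20 kb on each side (-7.64 points, adjusted p = 0.0403), both by the exact permutation test. HoxD shares differed by 0.82 points (exact permutation test, adjusted p = 0.941).

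Against their starting cells, Dox+FRG libraries had a higher HoxA share and a lower HoxB share, neither past the threshold. The mean number of HoxA peaks was 16.5 at day 0 and 14.9 under Dox+FRG and that of HoxB peaks 21.5 and 12.5, so the higher HoxA share did not go with more HoxA peaks. Day 0 cells had HoxA shares of 25.7% and 24.2%, below all 12 Dox+FRG libraries, and the difference was 6.14 points (p = 0.0220 and adjusted p = 0.105 in the exact permutation test, 91 splits). Their HoxB shares were 31.4% and 33.9%. The HoxB difference was -6.68 points (exact permutation test, p = 0.0879, adjusted p = 0.293), and Dox+FRG day 2 replicate 2 (32.1%) and day 8 replicate 1 (31.5%) lay inside the day 0 range. HoxC and HoxD shares differed by 1.5 and -0.96 points (exact permutation test, adjusted p = 0.941 each).

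**Figure D2:**
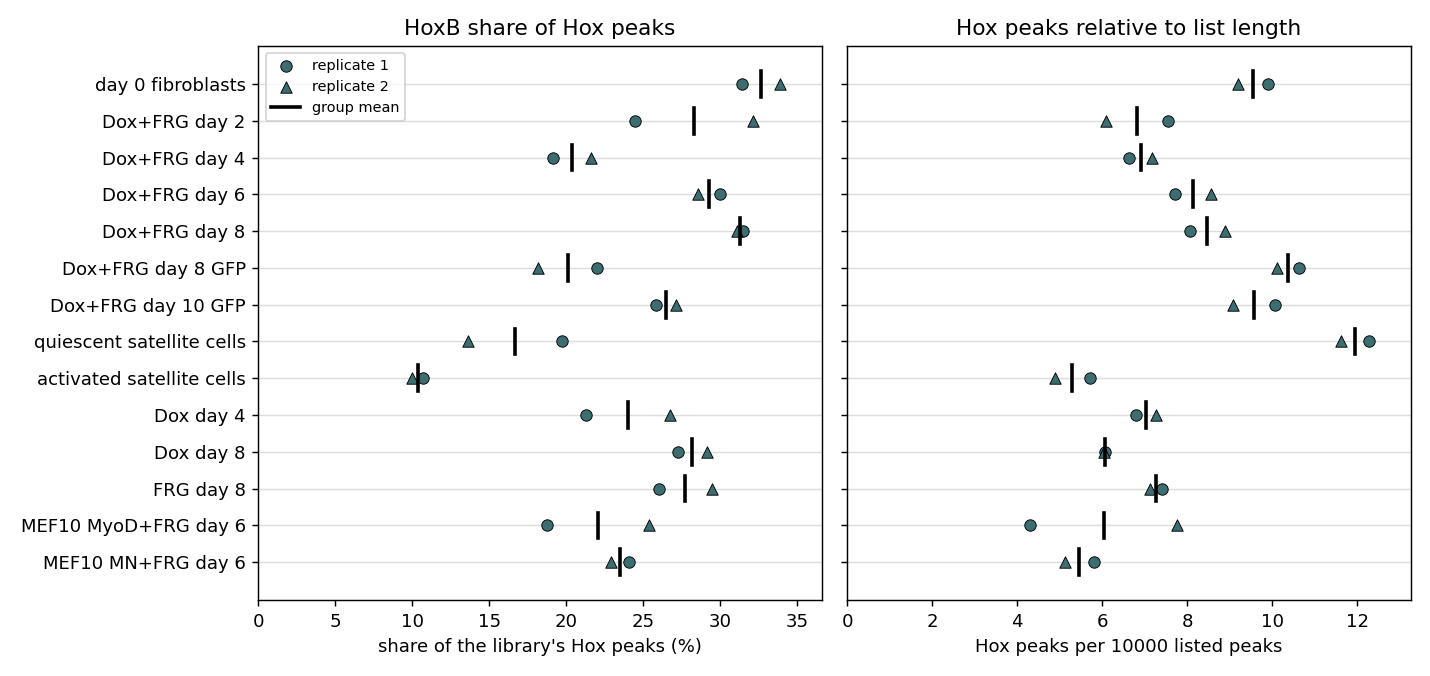
HoxB peaks as a percentage of the library's Hox peaks (left) and Hox peaks per 10000 listed peaks (right), by group; circles and triangles are the 2 libraries and the bar is the group mean. HoxB takes 10.7% and 10.0% in activated satellite cells and 31.4% and 33.9% at day 0, and the 4 GFP libraries sit at 9.08 to 10.6 Hox peaks per 10000, above the unsorted Dox+FRG libraries (6.08 to 8.89).

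Cells labelled GFP devoted more of their list to the Hox windows than unsorted Dox+FRG cells did. The GFP libraries had 10.6 and 10.1 Hox peaks per 10000 listed peaks at day 8 and 10.1 and 9.08 at day 10. The 8 unsorted libraries ran from 6.08 (day 2 replicate 2) to 8.89 (day 8 replicate 2) with a median of 7.62, so the groups did not overlap. Their means were 9.98 ± 0.649 and 7.58 ± 0.941 (SD), a difference of 2.40 (p = 0.00202, the smallest that the 495 splits of this exact permutation test can give, and adjusted p = 0.0202). The comparison also runs across days, since the unsorted cells were taken at days 2 to 8 and the GFP cells at days 8 and 10. At day 8 alone the unsorted libraries had 8.06 and 8.89, below both GFP libraries of that day, and 2 libraries against 2 cannot give an exact p under 0.333. In number, the day 8 GFP libraries held 50 and 44 Hox peaks and the unsorted day 8 libraries 54 and 45. Their lists held 47002 and 43467 peaks against 67026 and 50608, so the higher day 8 values did not go with more Hox peaks. The day 10 GFP libraries held 62 and 59, in lists of 61575 and 64947 peaks. The part of list length was not tested.

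With any 1 library left out the GFP difference stayed between 2.18 and 2.70, while the adjusted p rose. The call did not hold without Dox+FRG day 4 replicate 2 (2.34), Dox+FRG day 6 replicate 1 (2.42), Dox+FRG day 8 GFP replicate 1 (2.18) or replicate 2 (2.35), or Dox+FRG day 10 GFP replicate 1 (2.37) or replicate 2 (2.70), each with an adjusted p of 0.0606 by the exact permutation test. Without a GFP library the unadjusted p of 0.00606 is the smallest that this exact permutation test can give. Without day 4 replicate 2 or day 6 replicate 1 it was above the smallest that the same test can give there. With the mean of each group as the unit, 2 groups against 4 cannot give an exact p under 0.0667, and the adjusted p was 0.476. With bases covered in place of peaks the difference was 1.62 (exact permutation test, adjusted p = 0.237), and with only peaks wider than the common width of their list 1.70 (adjusted p = 0.457). No Hox share differed between GFP and unsorted cells past the threshold. The HoxB share differed by -4.04 points (exact permutation test, adjusted p = 0.413) and the HoxD share by 3.78 points (adjusted p = 0.357). Hox peaks per 10000 were 9.89 and 9.18 at day 0, 12.3 and 11.6 in quiescent and 5.71 and 4.89 in activated satellite cells. Satellite cells thus held group means as far apart as 11.9 (quiescent) and 5.30 (activated). Over their 4 libraries the mean was 8.62 ± 3.86, against 8.38 ± 1.44 in the 12 Dox+FRG libraries (exact permutation test, adjusted p = 0.947).

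Hox shares under doxycycline without FRG did not differ from those under Dox+FRG past the threshold, and the size and sign of the differences changed with how peaks were counted. At days 4 and 8 the HoxB share was 25.8% ± 6.38 under Dox+FRG and 26.1% ± 3.36 under Dox (SD, n = 4 each), and the 4 cluster shares differed by 1.02 (HoxA), -0.27 (HoxB), -0.85 (HoxC) and 0.11 (HoxD) points. None passed by the exact permutation test (adjusted p of 0.941 to 0.971). Counted in bases, the HoxA and HoxB differences were -4.00 and 5.57 points, and with extended peaks, those wider than the common width of their list, -10.4 and 14.2 points. None of these passed either. Hox peaks per 10000 were 7.69 ± 0.993 under Dox+FRG and 6.54 ± 0.591 under Dox (n = 4 each, exact permutation test, adjusted p = 0.357). The Dox lists were longer (89871 to 130916 peaks against 50608 to 70877) and their peaks narrower, and the part of these differences in the result was not tested.

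More Hox regions than regions of the genome were seen in most libraries, but few were seen in all. Of the 152 regions, 38 (25.0%) were called in 1 library, against 24.6% over the genome, and 32 (21.1%) in 20 or more libraries, against 14.4%. Here a region is called in a library that lists a peak inside it. Regions called in all 28 libraries numbered 4 (2.63%), against 5.55% of all regions. They lay in HoxA on chromosome 6 from 52120417 to 52123081 and from 52153577 to 52154999, in HoxB on chromosome 11 from 96274854 to 96275745 and in HoxC on chromosome 15 from 102796806 to 102797724. HoxD had none. The median Hox region spanned 500 bp and the median region of the genome 237 bp. The value of 500 bp is also the common width in MEF10 MyoD+FRG replicate 2, which entered the merging, and its part in this median was not tested.

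**Figure D3:**
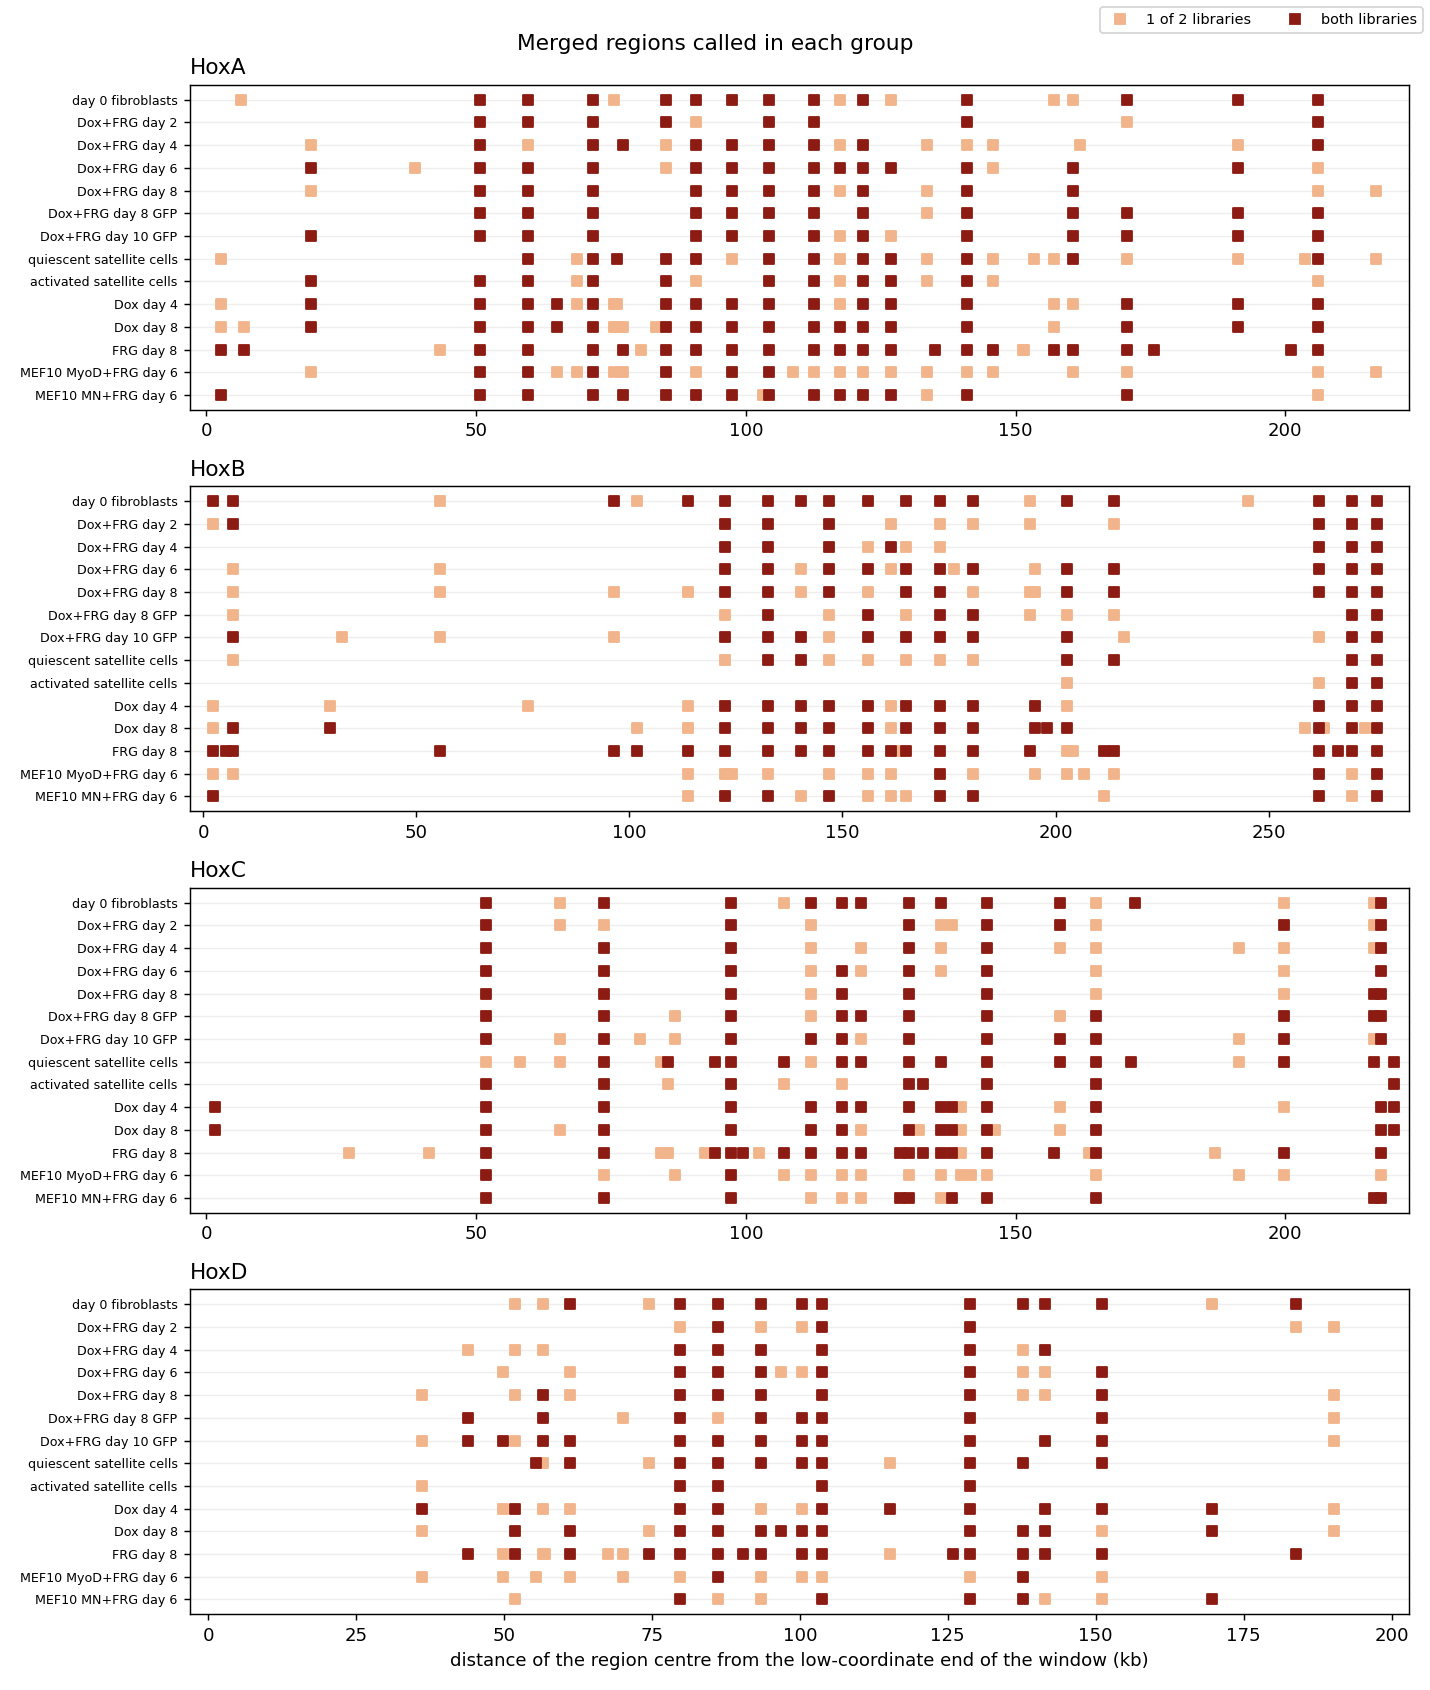
Merged regions in each Hox window, placed by distance from the low-coordinate end of the window in kb (x axis), for each of the 14 groups (y axis); dark squares are called in both libraries of a group and light squares in 1 of 2. Between 100 and 200 kb of the HoxB window the row of activated satellite cells is empty, while day 0 fibroblasts have 13 and 12 peaks there.

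Most HoxB peaks of day 0 fibroblasts lay between 100 and 200 kb from the low-coordinate end of the window, a stretch picked after its values were seen. Day 0 fibroblasts had 13 and 12 peaks there. Dox+FRG cells had 6 and 4 at day 2, 6 and 5 at day 4, 9 and 10 at day 6 and 10 and 7 at day 8, and GFP cells 7 and 5 at day 8 and 9 and 10 at day 10. Quiescent satellite cells had 9 and 2 and activated satellite cells 0 and 0. Activated satellite cells were the only group without a peak in that stretch in either library. At the low end, from 0 to 100 kb, day 0 cells had 4 and 3 peaks, FRG day 8 cells 5 and 5, and Dox+FRG day 4 and activated satellite cells 0 and 0. From 200 to 220 kb the 2 libraries of a group together had 4 peaks at day 0, 0 at Dox+FRG day 4 and 1 in activated satellite cells, so fewer peaks were listed outside the stretch as well. At the other end, the 20 kb from 260 to 280 kb had a peak in all 28 libraries. The 20 kb from 220 to 240 kb had none in any library.

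Regions of both day 0 libraries were followed through the other groups. These were 53 regions, 13 in HoxA, 17 in HoxB, 12 in HoxC and 11 in HoxD, of 57069 in the genome. Of the 17 in HoxB, Dox+FRG libraries called 10 and 8 at day 2, 8 and 7 at day 4, 13 and 13 at day 6 and 14 and 12 at day 8. In mean percent this was 52.9, 44.1, 76.5 and 76.5. Over the genome the same 4 days called 66.1%, 63.6%, 60.5% and 54.3% of the day 0 regions. HoxB was therefore called again less than the genome at days 2 and 4 and more at days 6 and 8, while the genome share fell from day to day. HoxD went the same way, with 45.5%, 59.1%, 72.7% and 68.2% at these days. HoxC lay below the genome only at day 2 (62.5%). HoxA lay above the genome at all 4 days, with 69.2%, 76.9%, 84.6% and 73.1%. The differences between the clusters and the genome were not tested.

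Cells labelled GFP called 12 and 12 of the 13 HoxA regions of day 0 at day 8, and 12 and 12 at day 10, against 10 and 9 in unsorted day 8 cells. In HoxB they called 10 and 8 of 17 at day 8 and 12 and 13 at day 10. Over the 4 windows GFP cells called 68.9% at day 8 and 81.1% at day 10, where the genome gave 46.4% and 56.8%. Dox cells called all 13 HoxA regions in each of their 4 libraries. FRG cells called 17 and 16 of the 17 HoxB regions and all 11 HoxD regions, and 93.4% over the 4 windows against 88.9% over the genome. Fibroblasts under the small molecules without doxycycline thus called nearly the whole day 0 Hox list again, in lists of 134997 and 133267 peaks.

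Satellite cells differed from each other on the same regions. Activated libraries called 3 and 3 of the 17 HoxB regions, 4 and 4 of the 11 in HoxD, 5 and 6 of the 12 in HoxC and 8 and 10 of the 13 in HoxA. Quiescent libraries called 13 and 6 in HoxB, 9 and 9 in HoxD, 10 and 8 in HoxC and 12 and 9 in HoxA. Over the 4 windows this was 40.6% ± 4.00 in activated and 71.7% ± 16.0 in quiescent cells (SD, n = 2 each). The genome went the other way, with 55.9% and 48.5%.

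**Figure D4:**
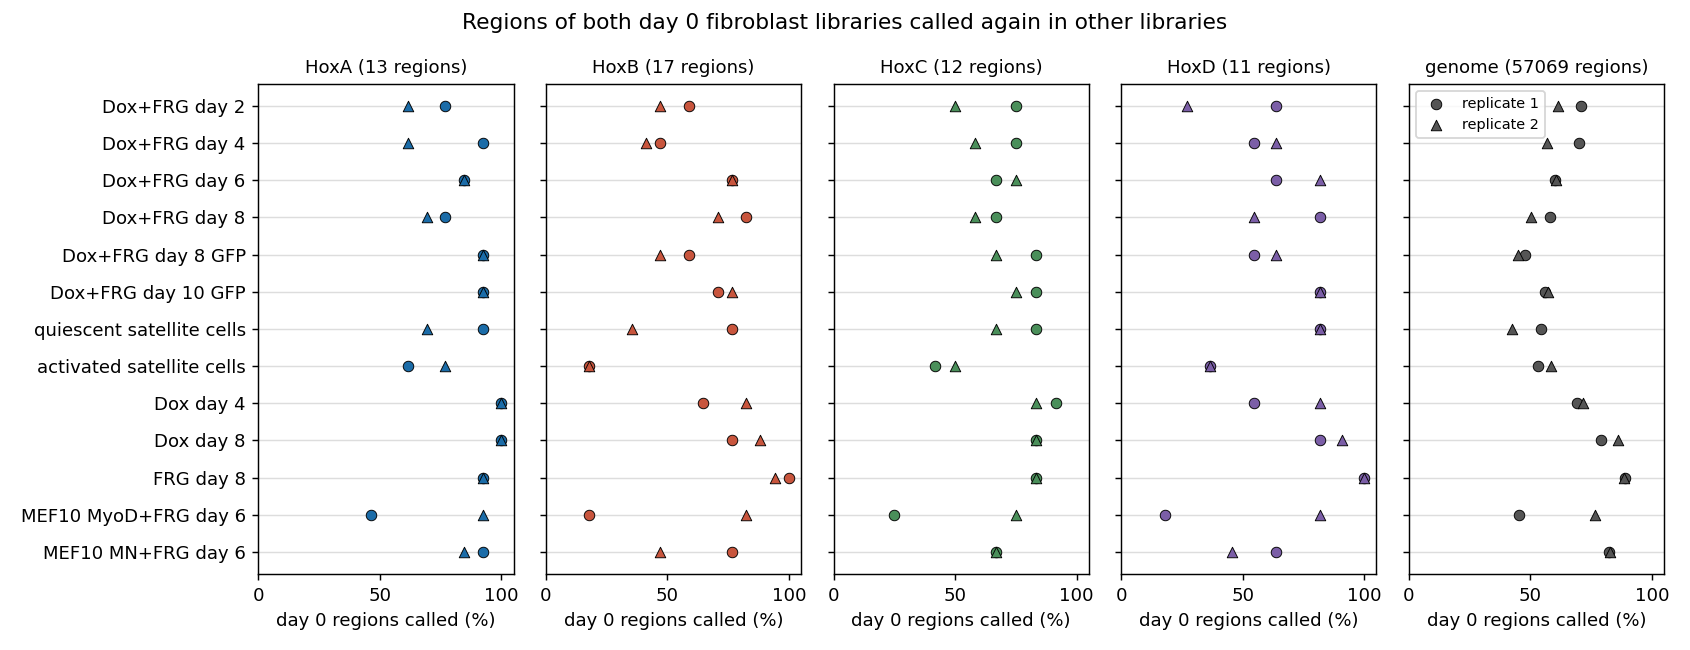
Share of the regions called in both day 0 libraries that each other library called again (x axis, percent), for each Hox window and the genome; circles and triangles are the 2 libraries of a group. In HoxB the activated satellite cells call 3 of 17 regions in each library, while the GFP cells of days 8 and 10 call 12 of 13 HoxA regions in each library.

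From quiescent to activated satellite cells the 4 Hox windows together lost many regions and gained few, with HoxA an exception in losses. A region was lost when both libraries of the reference and neither of the other group called it, and gained in the reverse case. Of 77 Hox regions called in either group, 18 were lost (23.4%, against 10.8% of all regions) and 3 gained (3.90%, against 17.2%). The lost regions were 7 of 23 in HoxC (30.4%), 6 of 14 in HoxD (42.9%), 3 of 14 in HoxB (21.4%) and 2 of 26 in HoxA (7.69%). HoxA thus lay below the genome in losses, and it gained 2 as well. As shares of all 152 regions the lost ones made up 11.8%, against 3.63% of all regions of the genome, and the gained ones 1.97%, against 5.80%. Leaving out 1 library relaxes this rule, so such counts, here and below, can only stay or rise. No share over the genome stands beside them. Without quiescent replicate 2, whose list held 37910 peaks, 40 regions were lost, and 5 were gained without activated replicate 1. With only the peaks wider than the common width of each list, 3 were lost and 0 gained. Such peaks made up 10.8% and 8.47% of the quiescent lists and 7.48% and 8.14% of the activated lists. No share over the genome stands beside these counts either.

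Some of these regions were open in nearly every other group. In HoxB, the region on chromosome 11 from 96131137 to 96134104 was called in 25 libraries, all but both activated libraries and 1 of MEF10 MyoD+FRG. In HoxD, chromosome 2 from 74542558 to 74544320 was called in 22 libraries and from 74600241 to 74602038 in 19, with both quiescent and both GFP libraries of day 10 among them. In HoxC, chromosome 15 from 102820850 to 102821727 and from 102899415 to 102900188 were called in 16 libraries each. HoxA held the reverse pattern on chromosome 6 from 52100335 to 52101245, a region called in 26 libraries, every one except the 2 quiescent ones. The gained HoxC region, chromosome 15 from 102832623 to 102832881, was called in 4 libraries, both activated and both FRG.

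Between day 0 and the converted cells, gained and lost regions over the 4 windows together made up smaller shares than over the genome, a difference that was not tested. At Dox+FRG day 8, 10 of 78 Hox regions were lost (12.8%, against 21.8% of all regions) and 0 gained (against 14.2%). The lost ones were 4 of 17 in HoxC (23.5%, above the genome), 3 of 22 in HoxA, 2 of 17 in HoxD and 1 of 22 in HoxB. At day 10 the GFP cells had lost 8 of 82 (9.76%, against 21.8%) and gained 3 (3.66%, against 18.0%). The day 8 counts were 2 gained and 19 lost without Dox+FRG day 8 replicate 1, 4 gained without its replicate 2, 2 gained without day 0 replicate 1, and 1 gained and 17 lost without day 0 replicate 2. For GFP cells 8 were gained without Dox+FRG day 10 GFP replicate 1, 5 without replicate 2 and 7 without day 0 replicate 1, and 13 were lost without day 0 replicate 2. When regions were merged without MEF10 MyoD+FRG replicate 2, 2 were gained at day 8 and 6 at day 10, and when only the 4 libraries compared were merged, 3 and 7.

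The 3 regions gained in day 10 GFP cells (1.97% of the 152, against 7.50% of all regions) lay in HoxA and HoxD. The HoxA region, chromosome 6 from 52069207 to 52069706, was called in 13 libraries, among them both activated satellite cell libraries, both Dox+FRG day 6 libraries and all 4 Dox libraries, and in no quiescent or FRG library. In HoxD, chromosome 2 from 74493610 to 74494099 was called in both GFP libraries of day 8 and of day 10, in both FRG libraries and in 1 of Dox+FRG day 4, and in no satellite cell library. The region from 74499654 to 74500158 was called in 6 libraries, both GFP libraries of day 10 among them.

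Under doxycycline alone at day 8, 9 of 95 Hox regions were gained (9.47%, against 28.9% of all regions) and 4 lost (4.21%, against 4.83%). Under FRG alone 20 of 113 were gained (17.7%, against 33.2%) and 3 lost (2.65%, against 3.46%). These comparisons and those of the Dox+FRG cells share the day 0 libraries. Without Dox day 8 replicate 1, 18 regions were gained, and without replicate 2 14 were gained and 8 lost. Losses under Dox were 7 and 10 without day 0 replicates 1 and 2, and losses under FRG 6 in both cases. Without FRG day 8 replicate 2, 33 regions were gained. Under Dox, 4 were gained when only peaks wider than the common width were kept, and 8 were lost when only the 4 libraries compared were merged.

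Hox regions were next sorted by their calls in fibroblasts and satellite cells. Shared by both day 0 and all 4 satellite cell libraries were 17 regions (11.2%, against 7.66% of all), 7 in HoxA, 4 in HoxC, 4 in HoxD and 2 in HoxB. Called in both day 0 libraries and in no satellite cell library were 7 regions, 3 in HoxB, 2 in HoxC, 2 in HoxD and 0 in HoxA (4.61% of Hox regions, against 6.58% of all, which is near the background). Of these, the HoxC region on chromosome 15 from 102917482 to 102918115 was called in 23 libraries, all but the 4 of satellite cells and 1 of MEF10 MyoD+FRG. In HoxD, chromosome 2 from 74590880 to 74592122 was called in 15 libraries, both GFP libraries of day 10 included. In HoxB, chromosome 11 from 96002006 to 96002520 was called in 10 libraries, of which 1 was a Dox+FRG library (day 2), and from 96112347 to 96115374 in 9 libraries, of which 1 was a Dox+FRG library (day 8).

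A single Hox region had the reverse pattern, called in all 4 satellite cell libraries and in neither day 0 library (0.658%, against 1.23% of all regions, again near the background). It lay at the upper edge of the HoxC window, on chromosome 15 from 102919967 to 102920414, and crossed that edge. It was called in 8 libraries, the 4 of satellite cells and the 4 Dox libraries of days 4 and 8, and in no Dox+FRG, FRG or MEF10 library. The neighbouring region of the preceding paragraph, which is open in fibroblasts and converted cells, ends before it in the same window.

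Day 10 GFP cells shared more of their Hox regions with day 0 fibroblasts than with either satellite cell group. Both GFP libraries called 48 Hox regions. Of these, 41 were also called in both day 0 libraries, 85.4% of the GFP list and 77.4% of the 53 of day 0 (genome 56.9% and 53.8%). These 41 were 26.97% of the 152 regions, against 12.1% of all. With quiescent cells they shared 30, 62.5% of the GFP list and 68.2% of the 44 quiescent regions (genome 51.9% and 77.8%). With activated cells they shared 20, 41.7% of the GFP list and 83.3% of the 24 activated regions (genome 56.1% and 69.6%). In HoxB all 11 regions of the GFP cells were day 0 regions, and so were all 6 of the quiescent and both of the activated cells. The quiescent and activated lists (44 and 24 regions) were shorter than the GFP list (48), which limits their shares of it. As a part of the other group's list, the overlap was largest for activated cells (83.3%), then day 0 (77.4%) and quiescent cells (68.2%). No difference between these overlaps was tested.

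Against activated satellite cells, day 10 GFP cells had 24 of 73 Hox regions gained (32.9%, against 19.1% of all regions) and 3 lost (4.11%, against 11.7%). The gained regions were 8 of 17 in HoxB (47.1%), 8 of 15 in HoxD (53.3%), 4 of 20 in HoxA (20.0%) and 4 of 21 in HoxC (19.0%). HoxA and HoxC were thus near the share over all regions. Without activated replicate 2, 7 were lost, and with only the wider peaks 1 was gained and 0 lost. Against quiescent cells they had 6 of 88 gained (6.82%, against 20.2%) and 11 lost (12.5%, against 7.31%), and 6 of the lost ones lay in HoxC. Gained regions numbered 11 without either Dox+FRG day 10 GFP library, 18 without quiescent replicate 1, and 10 when only the 4 libraries compared were merged. Lost regions numbered 22 without quiescent replicate 2. With only the wider peaks 0 were gained and 2 lost.

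Beyond the windows, the 500 kb on either side were counted as a local comparison. HoxD is known to be controlled in the limb from both of its flanks. Above HoxD, past the Hoxd1 end, day 0 cells had 17 and 18 peaks, quiescent satellite cells 16 and 9, day 10 GFP cells 10 and 9, unsorted Dox+FRG day 8 cells 12 and 10, and activated satellite cells 2 and 5. Below it, past the Hoxd13 end, the counts were 12 and 8 at day 0, 8 and 12 in day 10 GFP cells, 5 and 5 in activated and 2 and 2 in quiescent cells. The order of quiescent and activated cells was thus opposite on the 2 sides. Per 10000 listed peaks the upper flank held 2.57 ± 0.277 in quiescent and 0.611 ± 0.288 in activated cells, and the lower flank 0.437 ± 0.129 and 0.917 ± 0.145 (SD, n = 2 each). With 2 libraries a group these differences could not pass an exact test.

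Between day 0 fibroblasts and activated satellite cells, the flanks of HoxB differed less than the cluster. Below HoxB there were 19 to 23 peaks at day 0 and 13 in each activated satellite cell library, and above it 23 to 26 and 15 in each. Per 10000 listed peaks the lower flank held 3.03 ± 0.308 and 2.38 ± 0.376 and the upper flank 3.54 ± 0.189 and 2.75 ± 0.434 (SD, n = 2 each). At day 0 HoxC had the densest flanks of the 4, with 27 to 28 peaks below it and 41 to 42 above it, against 19 to 23 and 34 to 42 in activated satellite cells.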

How the data were processed

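Chromatin accessibility was measured by ATAC-seq in 28 mouse libraries. Each deposited list holds other data than counts or signal: the chromosome with the first and last position of every peak that the authors called in 1 library, with no score, p-value or read number. BWA, HOMER and the mm9 build are named in the submitters' processing notes. Tool versions, peak thresholds and any read shift were not given in the sources used here, and depth per library is unknown, so no interval that needs it is given. The first position of a peak was taken to count from 0, and positions are printed counting from 1.

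Peaks overlapping a window by at least 1 bp were counted per library, and peaks sharing 1 bp or more in any libraries were joined to regions. Shares and densities were compared by two-sided exact permutation tests over libraries (scipy 1.17.1, numpy 2.4.6, pandas 2.3.3, Python 3.11.15), adjusted over 20 tests by the Benjamini-Hochberg method. The counting was tested on simulated lists. The regions named by position are up to 3 of each cluster and class that were called in most libraries, and all regions called in every library. Members, windows, classes and comparisons were chosen with earlier results of these data known. The span of HoxB from 100 to 200 kb was chosen after its values were seen. Same-numbered libraries were not treated as pairs. Alternatives were merged regions or bases in place of peaks, wider windows, extended peaks (wider than the common width of their list), a minimum overlap of 50% of the shorter of 2 peaks, merging the 4 libraries compared or all but MEF10 MyoD+FRG replicate 2, group means, the replicate block, and each library left out. Sequences are from RefSeq, GRCm38.p6.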

Additional observations from a re-analysis of the deposited data

Results flagged for a closer look

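In 2 sets of 4 libraries, 1 library lay far from the other 3. Among the GFP-labelled Dox+FRG libraries, the HoxD share of Hox peaks was 18.0% in day 8 GFP replicate 1, while the other 3 stood between 22.0% and 22.7%. Among the Dox libraries, the HoxC share was 26.2% in day 4 replicate 1, while the other 3 stood between 22.5% and 22.8%. In all, 20 such sets were examined, and chance marks about 1 in 20.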

How the results depend on the processing

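All values here are differences in percentage points of the share of Hox peaks, in Hox peaks per 10000, or counts of regions. Counting merged regions in place of peaks turned the HoxB share of Dox+FRG minus Dox to 0.58 and brought the HoxC share of converted minus satellite cells past the threshold (-7.97), as did wider windows (-7.64). Counting bases turned the HoxA share of GFP minus unsorted cells to 4.21, HoxA and HoxB of Dox+FRG minus Dox to -4.00 and 5.57, and HoxC and HoxD of converted minus day 0 to -3.73 and 2.77, and took the GFP call on Hox peaks per 10000 away (1.62). Extended peaks turned HoxA and HoxB of Dox+FRG minus Dox to -10.4 and 14.2 and took that GFP call away too (1.70). Group means took away both calls at the same values (12.5 and 2.40), because fewer units leave fewer splits. The other causes were not tested. Extended-peak shares could not be computed where Dox+FRG day 2 replicate 2 enters, as it had no extended Hox peak.

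Leaving out 1 library in turn moved converted minus satellite shares over 11.3 to 14.5 (HoxB), -7.10 to -5.26 (HoxC), -0.42 to 2.39 (HoxD) and, per 10000, -1.48 to 0.98. GFP minus unsorted moved over 2.18 to 2.70 per 10000, -1.98 to 0.35 (HoxA) and -0.0050 to 2.10 (HoxC). Converted minus day 0 moved over -0.16 to 3.16 (HoxC) and -2.16 to 0.24 (HoxD). Dox+FRG minus Dox moved over -0.41 to 2.38 (HoxA), -2.15 to 1.96 (HoxB), -2.50 to 1.17 (HoxC) and -1.39 to 1.44 (HoxD). Each turn of sign was in a difference that had not passed.

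Leaving out 1 library relaxes the rule for gained and lost regions, so their counts can only stay or rise. Against day 0, leaving out 1 library gave 1 to 4 gained and 12 to 19 lost (Dox+FRG day 8), 3 to 8 and 10 to 13 (day 10 GFP), 10 to 18 and 5 to 10 (Dox), and 23 to 33 and 3 to 6 (FRG). It gave 3 to 5 gained and 19 to 40 lost for activated against quiescent cells, 6 to 18 and 11 to 22 for day 10 GFP against quiescent, and 3 to 7 lost against activated cells. Extended peaks gave 6 lost at Dox+FRG day 8, 1 gained at day 10 GFP and 4 gained under Dox against day 0, 0 gained and 3 lost for activated against quiescent cells, and 0 gained and 2 lost against quiescent and 1 gained and 0 lost against activated cells for day 10 GFP. Merging the 4 libraries compared gave 3 (Dox+FRG day 8) and 7 (day 10 GFP) gained and 8 lost (Dox) against day 0, and 10 gained for day 10 GFP against quiescent cells. Merging without MEF10 MyoD+FRG replicate 2 gave 2 and 6 gained at day 8 and day 10 GFP. An overlap of at least 50% moved none of the 14 counts by over 1.5 times.

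With the replicate number as a block, all 20 tests stayed on their side of the threshold (12.5 points for HoxB and 2.40 for GFP cells, adjusted p = 0.0444 each by the exact permutation test). A coefficient for pairing by replicate number ran from -0.237 to 0.232 over the Hox regions (91 pairs of groups, 14 over 0.1). It is not the correlation of whole libraries, and it cannot settle whether same-numbered libraries belong together. The lists give no peak strength or depth, so a region that is not listed may be open below the authors' threshold.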
